A study of Arabidopsis thaliana with 24 samples.

Results

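The genes described are those of Arabidopsis thaliana that build or acetylate polysaccharides of the cell wall. They were picked by a rule on names, which was set with earlier results of these data known. Counts of members beside shares of all probe sets are therefore only descriptive. A probe set was a member if it was annotated to exactly 1 gene whose symbol starts with TBL, CSL, CESA, GAUT, GATL, IRX, FUT or GUX followed by a letter or a number. The rule found 32 of the 22746 probe sets on the array, 1 for each of 32 genes. Of these, 22 were TBL, 7 CSL, 2 IRX and 1 GAUT genes, and none carried a CESA, GATL, FUT or GUX symbol. The RefSeq gene table holds 115 genes with such symbols, among them 41 TBL and 26 CSL genes, so the members do not stand for whole families.

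RNA came from whole seedlings grown for 7 days in liquid Murashige and Skoog medium with 1.5% sucrose, under 16 h of light and 8 h of dark. Each of 4 genotypes was given 5 µM indole-3-acetic acid (IAA, the main natural auxin) or ethanol as the control for 2 h at 24 °C, with 3 Affymetrix ATH1 arrays in each of the 8 groups. The genotypes were the Columbia wild type (Col), iaa17-6, axr3-1 and the triple mutant iaa5-1 iaa6-1 iaa19-1. Aux/IAA proteins repress auxin-responsive genes until auxin triggers their breakdown; axr3-1 and iaa17-6 are both alleles of the Aux/IAA gene IAA17, and axr3-1 is known as a gain-of-function allele whose product resists that breakdown. The comparisons ask how these genes respond to IAA and whether the mutants differ from Col.

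Plant cells lay down cellulose at the plasma membrane, while the Golgi makes the matrix polysaccharides, namely xyloglucan, mannan, xylan and pectin. Cellulose synthase-like (CSL) proteins make backbones of some of these polymers: the CSLC proteins make the glucan chain of xyloglucan, the CSLA proteins make mannan, and CSLD2 takes part in the wall of tip-growing cells such as root hairs. TRICHOME BIREFRINGENCE-LIKE (TBL) proteins are plant enzymes that add acetyl groups to wall polymers. Auxin causes cell expansion within hours, which is accompanied by loosening and renewal of the wall.

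Values are on the deposited log2 scale, which has a floor of 5.64 (the log2 of 50). A value at the floor says only that the signal was not above it. Of the 32 members, 16 were above the floor on all 24 arrays, 5 on some arrays and 11 on none. The 11 were CSLA01, CSLC12, IRX15, TBL15, TBL19, TBL20, TBL21, TBL30, TBL32, TBL42 and TBL43, and TBL32 was read by a probe set shared with related sequences. The other 21 were tested: 14 TBL genes, 5 CSL genes, GAUT15 and IRX15-L. A pair of neighbouring genes, TBL19 and TBL21, was at the floor throughout.

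Across all probe sets, arrays of a group correlated with r = 0.958 to 0.996, and the share of an array at the floor was 44.4% to 46.0%. In 6 groups 1 array stood apart, being the array with the lowest mean correlation with the others of its group where that mean was under 0.97, a limit chosen after seeing the data. These were replicate 3 of the Col control, of both iaa17-6 groups and of axr3-1 with IAA, and replicate 1 of both groups of the triple mutant. Means under 0.97 that were not the lowest of a group were seen as well. They were those of iaa17-6 control replicate 2 (0.969) and iaa17-6 IAA replicates 1 and 2 (both 0.968). Separate cultures are not mentioned in the labels, so p-values reflect the spread among these arrays alone, and that spread may be technical. In whole seedlings, fewer cells of a type and less RNA per cell cannot be told apart.

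Some members moved with these arrays, as did many other tested probe sets. The array that stood apart was the highest of its group in all 6 groups for 4 of 21 members, namely TBL23, TBL38, TBL39 and GAUT15. The share over all tested probe sets was 9.78%. It was the lowest in all 6 for CSLC6 and CSLD2, 2 of 21 members, which is near the 9.1% of all tested probe sets. The median difference from the other arrays of the group was 0.67 on the log2 scale for TBL38, 0.39 for TBL39, 0.32 for CSLA03, -0.41 for CSLC5 and -0.52 for CSLC6. It was 0.02 for both TBL25 and TBL45. Results that rest on these arrays are given below with and without them where that changes the call.

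**Figure D1:**
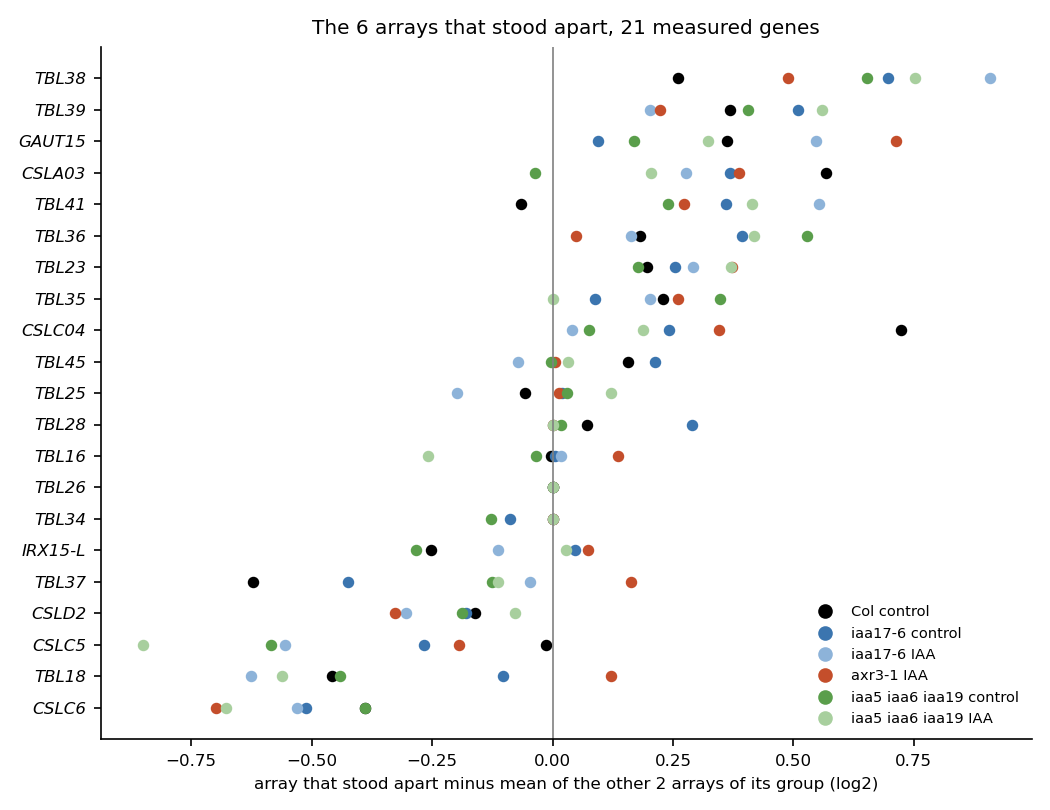
Level on each of the 6 arrays that stood apart, minus the mean of the other 2 arrays of its group (log2, horizontal axis), for the 21 measured genes; each point is 1 group. TBL38 lies to the right of 0 in all 6 groups (median 0.67) and CSLC6 to the left in all 6 (median -0.52).

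IAA changed 1 to 5 of the 21 measured genes, depending on the genotype. In each genotype this was a larger share than that of all tested probe sets called in either direction. In axr3-1 it rested on 1 gene. The comparison of shares is only descriptive, because the members were picked with earlier results of these data known. In Col 5 passed an adjusted p of 0.05 (limma, Benjamini-Hochberg over all 14192 tested probe sets), 1 higher and 4 lower, beside 7.04% of all tested probe sets called in either direction, 3.85% higher and 3.18% lower. In iaa17-6 4 passed, 2 higher and 2 lower, beside 7.72% of all, 4.41% higher and 3.31% lower. The triple mutant had 4, 1 higher and 3 lower, beside 7.27%, 3.68% higher and 3.59% lower. In axr3-1 1 passed, higher, beside 2.4% in either direction and 1.79% higher. No member passed in all 4 genotypes. The median log2 difference of the 21 members was -0.12 in Col, -0.07 in iaa17-6 and -0.21 in the triple mutant, and the median over all tested probe sets was 0, 0 and -0.01. In axr3-1 the median over all tested probe sets was 0, and 11 members lay below 0 and 8 above. Without 1 of the Col arrays, between 1 and 4 members passed in Col; the fewest, 1, was without IAA replicate 1, 2 passed without control replicate 1 or 3, and 3 without control replicate 2 or IAA replicate 3.

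The genes that rose with IAA were CSLC04 and CSLC5. Those that fell were CSLA03, IRX15-L, TBL25, TBL38, TBL39 and TBL45. The plot of levels by array shows all 8 genes that passed in at least 1 of the 13 comparisons, and the plot of responses gives their IAA responses with 95% intervals.

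**Figure D2:**
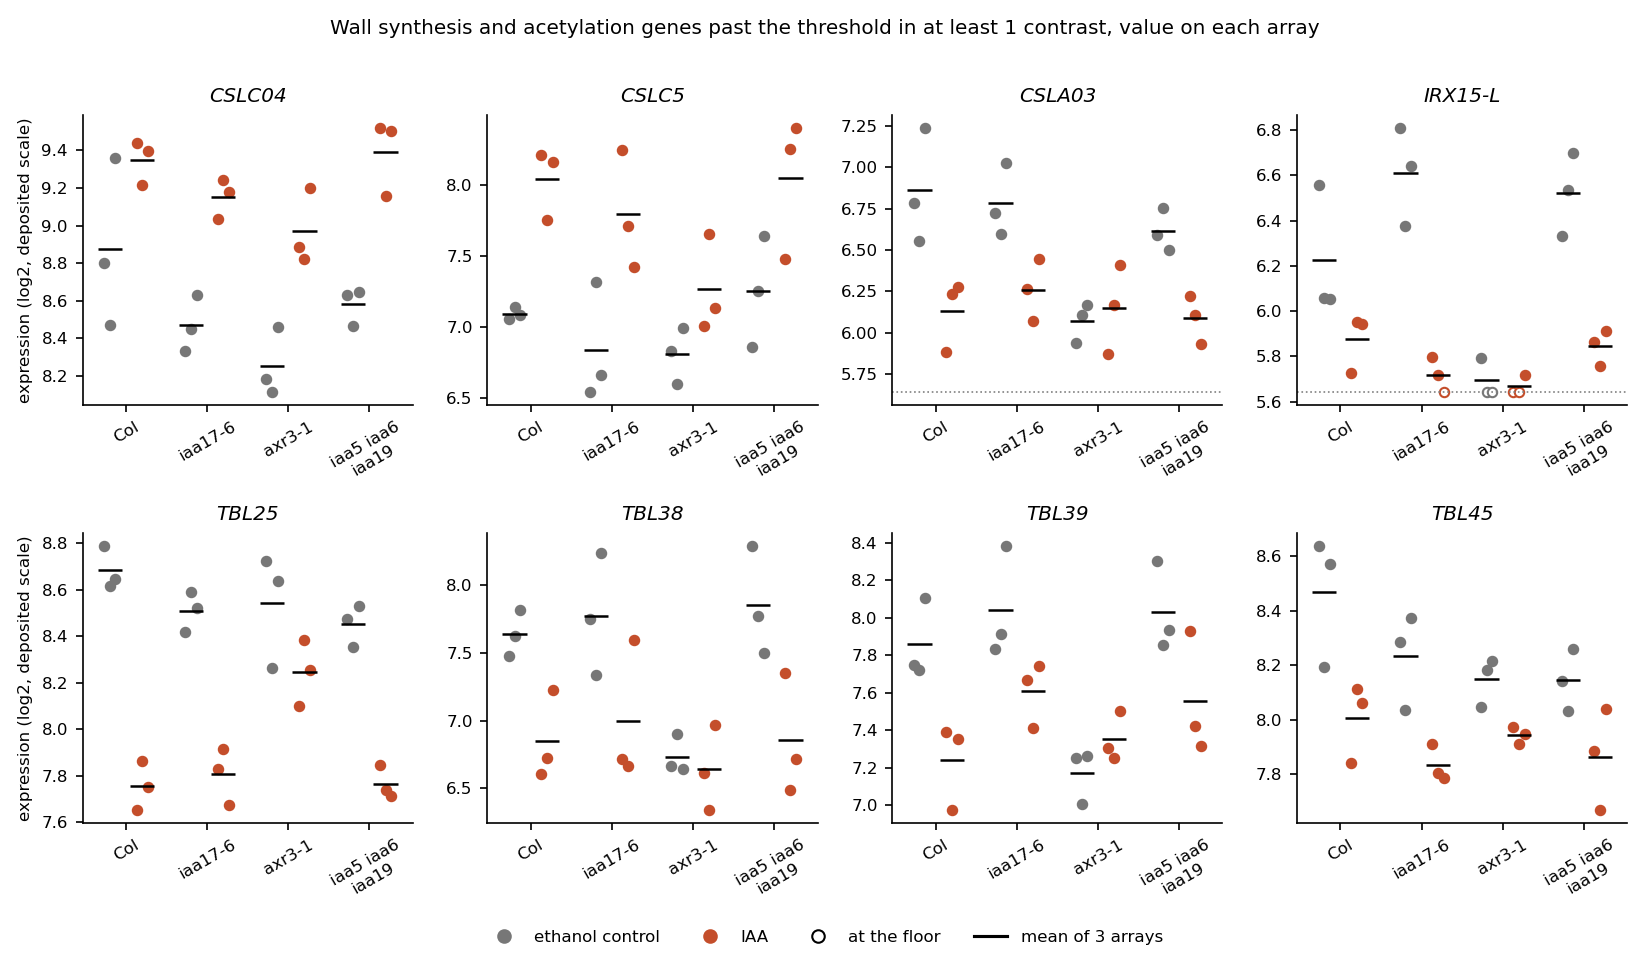
Expression (log2, vertical axes) of the 8 genes past the threshold in at least 1 comparison, on every array, by genotype; grey points are ethanol controls, orange points are IAA, open points lie at the floor and black bars are means of 3 arrays. TBL25 falls from 8.68 to 7.76 in Col and from 8.54 to 8.25 in axr3-1.

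CSLC04 (AT3G28180) encodes a glucan synthase of the xyloglucan backbone. In Col it read 8.80, 8.47 and 9.36 on the control arrays and 9.44, 9.21 and 9.40 after IAA. In iaa17-6 the values were 8.33, 8.45 and 8.63, then 9.03, 9.24 and 9.18. The iaa17-6 groups did not overlap, whereas in Col the control array replicate 3 reached the level of the IAA arrays. In axr3-1 the controls read 8.19, 8.12 and 8.46 and the IAA arrays 8.89, 8.82 and 9.20. The triple mutant gave 8.63, 8.46 and 8.65, then 9.52, 9.16 and 9.50. Each IAA array of these mutants was above each control array of the same genotype.

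CSLC04 rose by 0.81 in the triple mutant on the log2 scale (SE 0.17, 1.76-fold, limma adjusted p = 0.0036), by 0.72 in axr3-1 (SE 0.17, 1.64-fold, adjusted p = 0.0258) and by 0.68 in iaa17-6 (SE 0.17, 1.60-fold, adjusted p = 0.0151). In Col the difference was 0.47 (SE 0.17, adjusted p = 0.126), and this value rested on single arrays. It was 0.71 (adjusted p = 0.00457) without control replicate 3, which stood apart, and 0.27 (adjusted p = 0.492) without control replicate 2. The response of no mutant differed detectably from that of Col: the differences of responses were 0.21 (95% interval -0.30 to 0.71) in iaa17-6, 0.24 (-0.26 to 0.75) in axr3-1 and 0.34 (-0.16 to 0.85) in the triple mutant. The axr3-1 call was lost without control replicate 1 or 2 or IAA replicate 1 or 3 (adjusted p = 0.0597 to 0.152), and that of iaa17-6 without control replicate 1 (0.0766) or IAA replicate 2 (0.0578).

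CSLC5 (AT4G31590) is a second synthase of that glucan chain. Its Col controls read 7.06, 7.14 and 7.09 and its Col IAA arrays 8.21, 7.76 and 8.16. In iaa17-6 it read 6.54, 7.31 and 6.66, then 8.25, 7.71 and 7.42. Neither pair of groups overlapped, although the iaa17-6 arrays were spread more widely than those of Col. In axr3-1 CSLC5 read 6.83, 6.60 and 6.99 on the controls and 7.01, 7.65 and 7.14 with IAA, without overlap. In the triple mutant it read 6.86, 7.25 and 7.64, then 7.48, 8.26 and 8.40, and there the groups overlapped.

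CSLC5 rose by 0.95 in Col (SE 0.27, 1.93-fold, limma adjusted p = 0.0376) and by 0.95 in iaa17-6 (SE 0.27, 1.94-fold, adjusted p = 0.0339) on the log2 scale. It gave 0.79 in the triple mutant (SE 0.27, adjusted p = 0.0985; 0.0383 with the replicate number as a block) and 0.46 in axr3-1 (SE 0.27, adjusted p = 0.553). The axr3-1 response minus that of Col was -0.49 (95% interval -1.29 to 0.31, adjusted p = 0.716). Without IAA replicate 1 of the triple mutant, which stood apart, its response was 1.08 (adjusted p = 0.0188). The Col call was lost without control replicate 1, 2 or 3 or IAA replicate 1 or 3 (limma adjusted p = 0.0825 to 0.147), and with the replicate number as a block (0.0535). That of iaa17-6 was lost without control replicate 1 or 3 or IAA replicate 1 or 2 (0.0639 to 0.175).

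CSLC6, of the same subfamily, lay between 6.88 and 7.92 on the 24 arrays. Its differences in the 13 comparisons ran from -0.36 to 0.04 on the log2 scale, and none passed the threshold (lowest limma adjusted p = 0.590). CSLC12 was at the floor throughout, so 3 of the 4 CSLC members were measured. CSLD2 lay between 7.86 and 8.67 and passed in no comparison, with its lowest adjusted p, 0.101, for an IAA response of -0.35 in iaa17-6.

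Among genes of mannan, CSLA03 (AT1G23480) belongs to the mannan synthase family. It read 6.79, 6.56 and 7.24 in the Col controls and 5.88, 6.23 and 6.27 in Col with IAA. In axr3-1 it read 5.94, 6.10 and 6.16, then 5.87, 6.17 and 6.41. Every axr3-1 array, treated or not, lay below every Col control array. In iaa17-6 CSLA03 read 6.72, 6.60 and 7.03, then 6.26, 6.07 and 6.44. The triple mutant read 6.59, 6.75 and 6.50, then 6.22, 6.11 and 5.93, and in both of these mutants the IAA arrays were below all controls.

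CSLA03 fell by 0.73 in Col (SE 0.17, 1.66-fold lower, limma adjusted p = 0.00966). Its differences were -0.52 in iaa17-6 (adjusted p = 0.0732) and, for the triple mutant, -0.53 (adjusted p = 0.0765), all on the log2 scale. In axr3-1 the difference was 0.08 (SE 0.17, adjusted p = 0.916). Without Col control replicate 3, which stood apart, the Col difference was -0.54 (adjusted p = 0.0735), and without Col IAA replicate 1 it was -0.61 (0.0708). With the arrays that stood apart left out, the triple mutant gave -0.61 (adjusted p = 0.0306).

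TBL25 (AT1G01430) encodes an enzyme that acetylates mannan. It read 8.79, 8.62 and 8.65 in the Col controls and 7.65, 7.86 and 7.75 with IAA. In iaa17-6 it read 8.42, 8.59 and 8.52, then 7.83, 7.92 and 7.67. The triple mutant gave 8.47, 8.36 and 8.53, then 7.84, 7.74 and 7.71. In these genotypes every IAA array lay below the lowest control. The axr3-1 controls read 8.72, 8.26 and 8.64 and the axr3-1 IAA arrays 8.10, 8.38 and 8.25, so the groups overlapped through control replicate 2.

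TBL25 fell by 0.93 in Col (SE 0.11, 1.90-fold lower, limma adjusted p = 1.12e-05), by 0.70 in iaa17-6 (SE 0.11, 1.63-fold, adjusted p = 0.000226) and by 0.69 in the triple mutant (SE 0.11, 1.61-fold, adjusted p = 0.000281) on the log2 scale. These 3 calls held under every alternative tried. In axr3-1 the difference was -0.29 (SE 0.11, adjusted p = 0.276), and -0.43 (adjusted p = 0.0363) without control replicate 2. TBL23 and TBL26 encode relatives that also acetylate mannan. TBL23 lay between 6.39 and 6.93 and passed in no comparison. TBL26 was at the floor on 22 of 24 arrays and read 5.91 and 6.63 on axr3-1 control replicates 1 and 3. Its IAA difference in axr3-1 was -0.42 between floored means (adjusted p = 0.167), which is no bound because control replicate 2 also lay at the floor. It was -0.63 (adjusted p = 0.00368) without control replicate 2 and -0.13 (0.247) without control replicate 3.

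Genes of xylan, the main matrix polymer of secondary walls, were represented by IRX15-L, TBL28, TBL34 and TBL35. IRX15-L (AT5G67210) is the close homologue of IRX15, and the pair is needed for normal xylan. It read 6.56, 6.06 and 6.06 in the Col controls and 5.73, 5.95 and 5.94 with IAA. In iaa17-6 it read 6.81, 6.38 and 6.64, then 5.80, 5.72 and the floor. Triple mutant arrays read 6.33, 6.54 and 6.70, then 5.86, 5.76 and 5.91. The IAA arrays of these 3 genotypes all lay below their controls. In axr3-1 IRX15-L was above the floor only on control replicate 1 (5.79) and IAA replicate 3 (5.72).

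IRX15-L fell by 0.89 in iaa17-6 (SE 0.12, 1.85-fold lower, limma adjusted p = 5.63e-05) and by 0.68 in the triple mutant (SE 0.12, 1.60-fold, adjusted p = 0.00109) on the log2 scale, and both calls held under every alternative tried. In Col the difference was -0.35 (SE 0.12, adjusted p = 0.122). It was -0.18 (adjusted p = 0.513) without Col control replicate 1 and -0.52 (0.00370) with array weights. The iaa17-6 response minus that of Col was -0.54 (95% interval -0.91 to -0.17), which did not pass (adjusted p = 1). With 1 iaa17-6 IAA array and most axr3-1 arrays at the floor, the sizes of these differences may be understated.

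TBL28, TBL34 and TBL35 encode enzymes that acetylate xylan. TBL28 rose above the floor on 6 of the 12 control arrays and on 0 of the 12 IAA arrays. Its control values in the triple mutant were 5.87, 6.01 and 5.69, all above the floor at which its IAA arrays lay. That difference was -0.21, a lower bound of 1.16-fold (limma adjusted p = 0.0605; 0.0452 with the replicate block). It was -0.30 (adjusted p = 0.00553) without control replicate 3 and -0.14 (0.385) without control replicate 2. TBL34 was above the floor on 3 arrays, all controls of iaa17-6 or the triple mutant. TBL35 lay between 6.46 and 7.11, and TBL28, TBL34 and TBL35 passed in no comparison.

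TBL38 (AT1G29050) differs from its relatives in that pectin acetylesterase activity has been reported for it. It read 7.48, 7.63 and 7.81 in the Col controls and 6.61, 6.72 and 7.22 with IAA. In the triple mutant it read 8.29, 7.77 and 7.50, then 7.35, 6.49 and 6.72. The IAA arrays lay below all controls in both genotypes. In iaa17-6 TBL38 read 7.75, 7.33 and 8.24, then 6.72, 6.67 and 7.60, where IAA replicate 3 exceeded a control array. In axr3-1 it read 6.66, 6.90 and 6.64, then 6.61, 6.34 and 6.97, and the groups overlapped.

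TBL38 fell by 1.00 in the triple mutant (SE 0.29, 2.00-fold lower, limma adjusted p = 0.0382) on the log2 scale. In Col the difference was -0.79 (SE 0.29, adjusted p = 0.133, or 0.0370 leaving out the arrays that stood apart). In iaa17-6 it was -0.78 (SE 0.29, adjusted p = 0.125; 0.0491 with the replicate block), and -1.08 (adjusted p = 0.0278) without IAA replicate 3, which stood apart. The triple mutant call was lost without control replicate 1 or 2 or IAA replicate 2 or 3 (adjusted p = 0.0856 to 0.210). GAUT15, a member of the galacturonosyltransferase family of pectin synthesis, was above the floor on 7 arrays, of which 6 were those that stood apart, and passed in no comparison.

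TBL39 (AT2G42570) and TBL45 (AT2G30010) are further members of the acetyltransferase family. TBL39 read 7.75, 7.72 and 8.10 in the Col controls and 7.39, 6.98 and 7.35 with IAA. Its iaa17-6 arrays read 7.83, 7.91 and 8.38, then 7.67, 7.41 and 7.74. In both genotypes the IAA arrays were lower than all controls. In the triple mutant TBL39 read 8.30, 7.85 and 7.94, then 7.93, 7.42 and 7.32, with IAA replicate 1 within the controls. The axr3-1 values were 7.25, 7.01 and 7.26, then 7.31, 7.25 and 7.50, with overlap.

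TBL39 fell by 0.62 in Col (SE 0.18, 1.54-fold lower, limma adjusted p = 0.0473) on the log2 scale. The call was lost when any of the 6 Col arrays was left out (adjusted p = 0.0629 to 0.251). The differences in the other genotypes were -0.43 in iaa17-6 (adjusted p = 0.207, and -0.26 without control replicate 3), -0.47 in the triple mutant (0.170, and 0.0389 for -0.66 without IAA replicate 1) and 0.18 in axr3-1 (0.750).

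TBL45 read 8.64, 8.19 and 8.57 in the Col controls and 7.84, 8.11 and 8.06 with IAA. It read 8.29, 8.04 and 8.37, then 7.91, 7.80 and 7.79 in iaa17-6. The IAA arrays were below the controls in both genotypes. In axr3-1 it read 8.05, 8.18 and 8.21, then 7.97, 7.91 and 7.95, which also did not overlap. The triple mutant read 8.14, 8.03 and 8.26, then 7.89, 7.67 and 8.04, with IAA replicate 3 just above a control.

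TBL45 fell by 0.46 in Col (SE 0.12, 1.38-fold lower, limma adjusted p = 0.0234) on the log2 scale. The difference was -0.40 in iaa17-6 (adjusted p = 0.0546, and 0.0260 without control replicate 2), -0.28 in the triple mutant (0.264, and -0.18 without IAA replicate 2) and -0.21 in axr3-1 (0.558). The Col call was lost without control replicate 1 or 3 or IAA replicate 1 (adjusted p = 0.113 to 0.142), and with all arrays that stood apart left out (0.153).

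**Figure D3:**
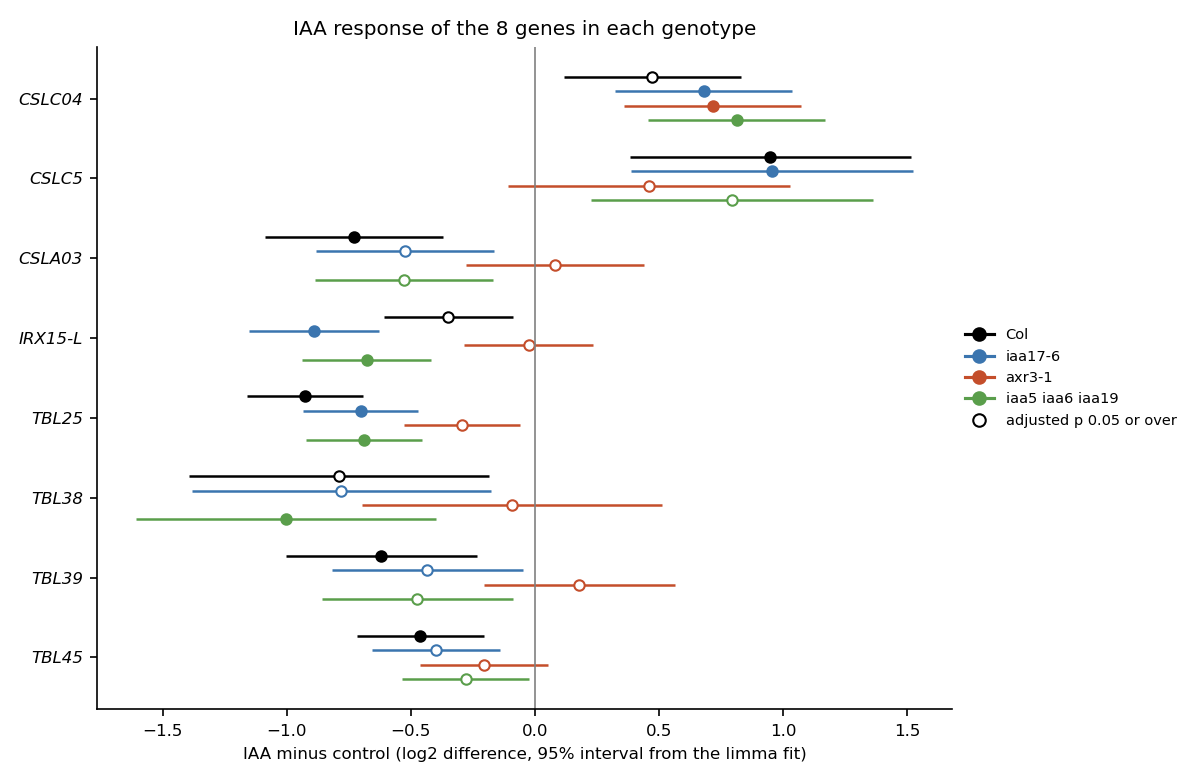
IAA minus control (log2 difference, horizontal axis) with 95% intervals from the limma fit, for the 8 genes in the 4 genotypes; filled points pass an adjusted p of 0.05. CSLC04 and CSLC5 lie to the right of 0 in all genotypes, and the axr3-1 point of CSLA03 lies at 0.08 while that of Col lies at -0.73.

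The remaining TBL genes passed in no comparison. TBL36 lay between 8.21 and 9.40, TBL37 between 7.17 and 8.34, TBL41 between 6.12 and 7.49, TBL18 between 6.41 and 7.26 and TBL16 between 6.16 and 6.63. The IAA difference of TBL36 in axr3-1 was 0.51 (SE 0.17, limma adjusted p = 0.164), from control values of 8.31, 8.21 and 8.30 to IAA values of 8.94, 8.60 and 8.82. These groups did not overlap. Of the 21 members, 8 had an unadjusted limma p under 0.05 for the IAA response in Col, 9 in iaa17-6, 5 in axr3-1 and 11 in the triple mutant. The shares of all tested probe sets were 15.6%, 17.1%, 10.9% and 14.8%.

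The axr3-1 controls differed from the Col controls in 4 of the 21 members, all lower, beside 9.05% of all tested probe sets called in either direction and 4.4% called lower. The 4 were CSLA03, IRX15-L, TBL39 and CSLC04, whose values are given above. Their axr3-1 and Col control arrays did not overlap, which adds little to calls made from the same arrays. For CSLC04 the nearest arrays read 8.46 in axr3-1 and 8.47 in Col. The median log2 difference of the members was -0.15, with 16 below 0 and 4 above, and the median over all tested probe sets was 0.00. CSLA03 was lower by 1.73-fold (log2 difference -0.79, SE 0.17, limma adjusted p = 0.00421) and TBL39 by 1.61-fold (-0.68, SE 0.18, adjusted p = 0.0214). CSLC04 was lower by 1.54-fold (-0.62, SE 0.17, adjusted p = 0.0235) and IRX15-L by 1.44-fold (-0.53, SE 0.12, adjusted p = 0.00837).

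Some of these calls rested on single arrays. Without Col control replicate 3, which stood apart, CSLC04 gave -0.38 (adjusted p = 0.172) and TBL39 -0.56 (0.127) on the log2 scale, and 2 members passed. TBL39 was also lost without axr3-1 control replicate 2 (0.0828), CSLC04 without axr3-1 control replicate 1 or 2 (0.0853 and 0.0852), and IRX15-L without Col control replicate 1 (-0.36, 0.0604). TBL38 did not pass (-0.91, SE 0.29, limma adjusted p = 0.057), and it passed under 6 of 16 alternatives. These included quantile normalization (0.0486), median centring (0.0422), genes above the floor on all arrays (0.0446) and the 60% lowest left out (0.0417). The others were only the compared groups in the fit (0.0375) and leaving out the arrays that stood apart (-0.82, adjusted p = 0.0148). TBL36 gave -0.50 (adjusted p = 0.0725), its axr3-1 controls lying below the Col controls of 8.77, 8.66 and 8.90. TBL26, at the floor in Col and on axr3-1 control replicate 2, gave 0.42 between floored means (adjusted p = 0.068). That value was 0.63 (0.00127) without axr3-1 control replicate 2 and 0.13 (0.114) without replicate 3. TBL45 gave -0.32 (0.132; 0.0216 without Col control replicate 2).

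With IAA in both genotypes, only TBL25 differed between axr3-1 and Col, beside 7.72% of all tested probe sets, 4.22% higher. It was higher in axr3-1 by 1.40-fold (log2 difference 0.49, SE 0.11, limma adjusted p = 0.0073), and its 3 axr3-1 arrays lay above its 3 Col arrays. CSLC5 gave -0.78 (SE 0.27, adjusted p = 0.0961) and CSLC04 -0.38 (SE 0.17, 0.237; 0.0472 with the arrays that stood apart left out). CSLD2 gave -0.32 (SE 0.12, 0.155; 0.0390 without axr3-1 IAA replicate 1), and -0.21 without axr3-1 IAA replicate 3, which stood apart. The 4 genes lower in the axr3-1 controls gave differences of 0.02 (CSLA03), 0.11 (TBL39), -0.21 (IRX15-L) and -0.38 (CSLC04) with IAA, none past the threshold.

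Some markers of root hairs were lower in axr3-1 than in Col, both in the controls and with IAA. Of 18 listed markers 4 were measured, and XTH26, EXPA7 and EXPA18 were at the floor on every axr3-1 array. The summed linear level of the 4 was 387 to 419 in the axr3-1 controls against 626 to 791 in the Col controls, and 391 to 442 against 636 to 792 with IAA. With 3 markers at the floor, the axr3-1 sums are upper bounds that vary through SCN1 alone. Mean SCN1 levels were 7.95 in axr3-1 and 8.26 in Col in the controls, and 8.03 and 8.25 with IAA. The seed reserve marker ICL, the only 1 of 21 measured, read 617 to 2221 on the linear scale in the axr3-1 controls and 92.6 to 358 in the Col controls (limma adjusted p = 0.0046), a difference that did not pass with IAA (log2 difference 1.68, adjusted p = 0.121). ICL was also higher in the triple mutant than in Col, at 1141 to 3625 in the controls (limma adjusted p = 0.0124) and 1547 to 2646 with IAA (0.0401). For the IAA response, 1 of the 4 root hair markers passed in iaa17-6 and 0 in the other genotypes. In iaa17-6 XTH26 fell by 0.85 on the log2 scale (SE 0.20, limma adjusted p = 0.0112), and EXPA18 gave -0.60 (adjusted p = 0.0744). In the triple mutant the values were -0.52 for XTH26 (limma adjusted p = 0.182) and -0.47 for EXPA18 (0.227), and in Col -0.34 and -0.15. Mean EXPA7 levels went from 6.76 to 6.83 in iaa17-6, 6.69 to 6.94 in Col and 7.07 to 6.80 in the triple mutant. Those of SCN1 went from 8.28 to 8.14, 8.26 to 8.25 and 8.11 to 8.07 in the same order. The part of these markers in the results was not tested. The measured markers of roots (PYK10, 1 of 8) and of photosynthetic tissue (LHCB4.1, 1 of 21) were above the floor on all arrays, and 0 of 11 xylem markers were measured.

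The IAA responses themselves differed between axr3-1 and Col for 1 member, beside 1.62% of all tested probe sets and 0.747% with the response higher in axr3-1. The TBL25 response was less negative in axr3-1 by 0.63 on the log2 scale (SE 0.16, 95% interval 0.30 to 0.96, limma adjusted p = 0.0474). CSLA03 gave a difference of 0.81 (95% interval 0.31 to 1.32, limma adjusted p = 0.134), or 0.49 once the arrays that stood apart were left out. TBL39 gave one of 0.80 (0.25 to 1.34, 0.206). In all, 5 members had an unadjusted p under 0.05, beside 9.04% of all tested probe sets. TBL38 gave 0.70 (-0.16 to 1.55, limma adjusted p = 0.658), IRX15-L 0.32 (-0.05 to 0.69, 0.631) and TBL45 0.26 (-0.11 to 0.62, 0.694). IRX15-L was above the floor on only 1 axr3-1 control array and 1 axr3-1 IAA array. Its axr3-1 response thus had little room to fall, and this difference may be overstated. The median difference was 0.22 for the 21 members and 0 for all tested probe sets.

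The TBL25 difference was near the threshold: it was lost without any of Col control replicates 1 to 3, Col IAA replicates 1 to 3, axr3-1 control replicate 2 or 3, or axr3-1 IAA replicate 2 or 3 (0.49 to 0.69, adjusted p = 0.0555 to 0.145). TBL26, at the floor in all groups but the axr3-1 controls, gave a difference of floored values of -0.42 (adjusted p = 0.529). It was -0.63 (0.0439) without axr3-1 control replicate 2 and -0.13 (0.598) without replicate 3. Since the responses of axr3-1 and Col share arrays with the comparisons above, these differences are not independent of them.

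**Figure D4:**
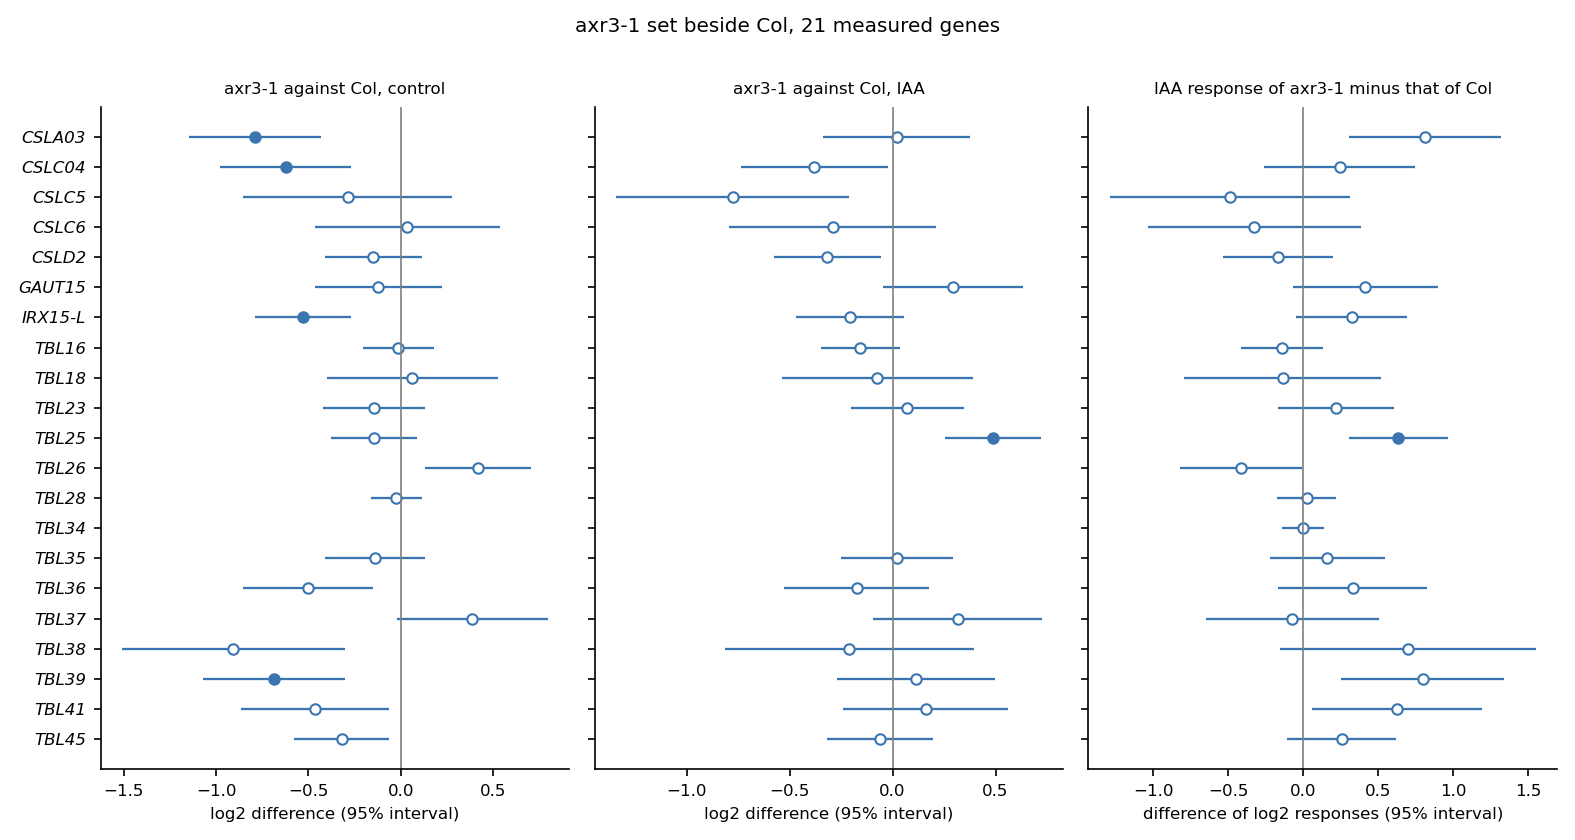
Log2 difference of axr3-1 from Col in the controls (left) and with IAA (middle), and the difference of their IAA responses (right), with 95% intervals from the limma fit, for the 21 measured genes; filled points pass an adjusted p of 0.05, and genes at the floor in both groups are left out. The 4 filled points on the left lie below 0, between -0.79 and -0.53, and TBL25 is the filled point in the other panels.

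Neither iaa17-6 nor the triple mutant differed from Col in any member past the threshold. In the controls 0 members passed in iaa17-6, beside 0.197% of all tested probe sets, and 0 in the triple mutant, beside 0.176%. With IAA 0 passed in either, beside 0.106% and 0.148%, and 0 differences of responses passed, beside 0.0282% and 0.0352%. In this limma fit the members with an unadjusted p under 0.05 numbered 2 and 3 in the controls, 2 and 0 with IAA, and 2 and 0 for the differences of responses. Over all tested probe sets the shares were, in that order, 8.96% and 7.63%, 9.08% and 7.2%, and 2.15% and 1.44%. IRX15-L, at 6.81, 6.38 and 6.64 in the iaa17-6 controls, gave 0.38 against Col (SE 0.12, 95% interval 0.12 to 0.65, adjusted p = 0.262), and the groups overlapped. CSLD2 read 8.14, 8.18 and 7.86 in iaa17-6 with IAA, all below the Col IAA values of 8.35, 8.56 and 8.57, and gave -0.43 (SE 0.12, adjusted p = 0.31).

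Other genes of wall synthesis were sparsely named in the annotation used here. Of 171 genes on 6 lists outside the naming rule, 6 were measured: USP and GER2 of nucleotide sugar synthesis, COB, THE1 and KOR2 of the cellulose list, and the glycosyltransferase gene XEG113. None passed the threshold in 78 limma tests over the 13 comparisons, and 6 of the tests had an unadjusted p under 0.05. Among all tested probe sets, 0.0282% to 9.05% passed, depending on the comparison. The share with an unadjusted p under 0.05 ran from 1.44% to 19.1%. THE1, a receptor kinase gene involved in sensing wall integrity, gave -0.57 in Col with IAA (SE 0.18, adjusted p = 0.0707). USP, which makes several nucleotide sugars, gave -0.30 in the axr3-1 controls against Col (SE 0.09, adjusted p = 0.0538). The lists of acetyl donors and wall methyltransferases, callose synthases and secondary wall transcription factors had 0 measured members.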

How the data were processed

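Total RNA of 24 seedling samples was measured on ATH1 arrays. The deposited table gives each probe set a log2 value on every array. This scale is an inference from the values; how the authors summarized and normalized the probes is not given in the sources used here. Groups and replicate numbers came from the labels; the title of 1 axr3-1 control misspells the allele that its description gives correctly. Control probe sets were left out, as were 8554 others never above the floor, and 14192 remained for testing. The number of arrays limits the precision: the median SE was 0.15 between groups and 0.21 where responses were compared.

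A single limma fit (version 3.58.1, R 4.3.3) with a mean for each of the 8 groups gave the 13 contrasts, with 16 residual degrees of freedom and a mean trend in the empirical Bayes step. Tests were two-sided, with Benjamini-Hochberg adjustment within a contrast and a threshold of 0.05. The fit was tested on simulated data. A fold against a group at the floor is a lower bound where the other group lies wholly above it. Levels of different probe sets were not compared.

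Of the probe sets, 13513 name 1 gene, 503 several, and 8730 are unnamed here. All 32 members matched the RefSeq table (TAIR10.1) by gene ID. No genome build is named in the sources used here, so no coordinates are given. Members past the threshold in any contrast were named with values, the others by ranges with up to 4 named per family and for results that a count turns on. The members, lists and this rule were chosen with earlier results of these data known. TBL36 values, the partly floored members and the unadjusted results were singled out after their values were seen.

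Same-numbered arrays deviated together, with correlations over 0.1 in every pair, between the treatments of iaa17-6 (0.16 to 0.70) and of the triple mutant (0.58 to 0.84) and between the Col and iaa17-6 controls (0.33 to 0.72), not in the other 7 pairs of groups. The pairing thus comes from the data, not the labels. Between the treatments of iaa17-6 the array of the same number was not the best match for every array. Alternatives were quantile normalization, median centring, 3 other filters, no mean trend, array weights, only the compared groups in the fit, the replicate block, leaving out each array and, added after seeing the data, leaving out the 6 arrays that stood apart.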

Additional observations from a re-analysis of the deposited data

Results flagged for a closer look

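The IAA response of TBL25 differed between axr3-1 and Col by the test of the difference itself. The difference was 0.63 on the log2 scale (SE 0.16, limma adjusted p = 0.0474), with all 3 Col IAA arrays below the 3 Col controls and overlapping groups in axr3-1. Over 22 alternatives it ranged from 0.49 to 0.73, with adjusted p = 0.0169 to 0.171, and it did not pass under 16 of them.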

How the results depend on the processing

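Of the 20 calls of members, 0 reversed, 6 held under every alternative run and 14 were lost under at least 1. The 6 were TBL25 in Col, iaa17-6 and the triple mutant, IRX15-L in iaa17-6 and the triple mutant, and CSLC04 in the triple mutant. Of 40 differences that had an unadjusted p under 0.05 but did not pass, 21 passed under at least 1 alternative. Members past the threshold for the IAA response numbered 5 in Col, and 3 with no filter, 8 with array weights and 2 with only the compared groups in the fit (1 to 4 with an array left out). They numbered 4 in iaa17-6 (2 to 5 with an array left out) and 4 in the triple mutant (11 with array weights, 3 to 6 with an array left out). In axr3-1 they numbered 1, and 0 with no filter, array weights or only the compared groups, and 2 with the replicate block (0 to 2 with an array left out). For axr3-1 against Col there were 4 in the controls (2 to 5 with an array left out). With only the compared groups all 4 were lost (adjusted p = 0.0883 to 0.305) and the 2 that passed were TBL36 and TBL38. With IAA there was 1 (2 with array weights, 0 with only the compared groups, 2 without the arrays that stood apart, 1 to 2 with an array left out). For the difference of the axr3-1 and Col responses there was 1, and 0 with no filter, with the 60% lowest left out, with genes above the floor on all arrays, with only the compared groups, with the replicate block or without the arrays that stood apart (0 to 1 with an array left out). The triple mutant against Col with IAA gave 0, and 1 with array weights; the other comparisons gave 0 throughout. Where same-numbered arrays deviated together, the block added TBL38 in iaa17-6 and CSLC5 and TBL28 in the triple mutant and changed no other call there. In Col, whose same-numbered arrays did not all deviate together, the block lost CSLC5 (adjusted p = 0.0535). The array weights fit stopped before its tolerance was reached. The fit with only the compared groups has fewer arrays. What caused the other changes was not tested. Shares of all probe sets called under each alternative are not given here. A change in these counts therefore need not be particular to the members. Signals near the floor limit IRX15-L, GAUT15, TBL26, TBL28 and TBL34.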

Other observations

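A few wall synthesis genes fell outside the naming rule because the annotation lists them under other symbols, and they were looked up after the rule had been applied. TBL40, listed by its locus AT2G31110, has a pair of probe sets. On 1 of them it was lower with IAA in Col (log2 difference -0.76, SE 0.16, limma adjusted p = 0.00329), in iaa17-6 (-0.62, adjusted p = 0.0157) and, by 1.72-fold, in iaa5-1 iaa6-1 iaa19-1 (-0.79, adjusted p = 0.00221). In axr3-1 the difference was -0.15 (adjusted p = 0.749), and with IAA TBL40 was higher in axr3-1 than in Col by 0.58 (adjusted p = 0.0238). The difference of the axr3-1 and Col responses was 0.60 and did not pass (adjusted p = 0.307). The other probe set gave IAA differences of -0.47 in Col (limma adjusted p = 0.115), -0.18 in iaa17-6 (0.740) and -0.24 in axr3-1 (0.608). For the triple mutant it gave a lower bound of 1.32-fold (adjusted p = 0.208), and for axr3-1 against Col with IAA 0.20 (0.616). The probe sets thus did not make the same calls. On both, the IAA means outside axr3-1 lay near the floor, at 5.64 to 5.92.

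IRX10, listed as GUT2, encodes a xylan backbone synthase. It was lower in axr3-1 than in Col, by 0.30 on the log2 scale in the controls (log2 difference -0.30, SE 0.09, limma adjusted p = 0.0446) and by 1.28-fold with IAA (-0.36, SE 0.09, adjusted p = 0.0176), without overlap between the groups. Its IAA responses were -0.16 in axr3-1 and -0.10 in Col, and neither passed. CSLC08, listed as ATCSLC08, was above the floor on 2 of 24 arrays.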
